A study of Mus musculus with 12 samples.

Results

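The 10 circadian clock genes Per1, Per2, Per3, Cry1, Cry2, Nr1d1, Nr1d2, Dbp, Clock and Npas2 were followed in the duodenum and liver of mice given corticosterone (CORT) or vehicle (Veh). They were taken by gene symbol, with no threshold on their values, and all 10 are among the 55416 genes that the table of each tissue lists. The choice was made with earlier results of these data known, so shares of the 10 set against all genes are descriptions. RNA-seq was done on 12 libraries, 3 Veh and 3 CORT from each tissue, numbered here as Veh1 to Veh3 and CORT1 to CORT3. The animals of all 4 groups were male C57BL6/J mice, 8 weeks old at the start, under 12 h of light and 12 h of dark, and none is described as carrying a transgene or a deletion. CORT at 40 mg/kg or vehicle was injected under the skin every day for 8 weeks. The labels call the gut samples intestine and the study describes them as duodenum, whole tissue in both cases. The hours of injection and of tissue collection are not given in the sources used here, and each library holds a single time point. A level therefore cannot be placed in the daily cycle. For the same reason, a change in level between Veh and CORT cannot be told apart from a change in timing. Whether same-numbered liver and duodenum libraries came from the same mouse is not stated either.

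The mammalian clock is a feedback loop of transcription. CLOCK, or its relative NPAS2, pairs with BMAL1 (listed in the tables as Arntl) and activates genes through E-boxes, among them the Per, Cry, Nr1d and Dbp genes. PER and CRY proteins then inhibit the activators, while NR1D1 and NR1D2 (REV-ERBα and REV-ERBβ) repress genes such as Arntl and Clock, and DBP activates genes through D-boxes. Glucocorticoids are known to reset the clocks of peripheral tissues, and Per1 is a known direct target of the glucocorticoid receptor.

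In the CORT groups, Cry1 was raised and Nr1d1 was reduced in both tissues. Cry2 was called higher in the duodenum, and Clock was called higher and Dbp lower in the liver. The difference between tissues did not pass for Cry2, Clock or Dbp (treatment by tissue term, limma adjusted p = 0.0693, 0.371 and 0.239). A gene was called where its fold change exceeded 1.5 with a limma adjusted p no higher than 0.05, both on log2(TPM + 1), TPM being transcript abundance relative to the total of the library and corrected for length. All 10 genes passed the filter of a mean of 1 TPM in either group of the duodenum and 9 passed it in the liver. Those that passed did so in both groups of the tissue, so none entered through its higher group alone. In the duodenum 2 of the 10 were called higher, where 1.23% of all 13607 genes tested were called higher, and 1 of 10 was called lower, against 0.919% of all genes. The Veh and CORT values did not overlap for 7 of the 10, against 26.4% of all genes. In the liver 2 of 9 were called higher, against 4.91% of 11699 genes, and 2 of 9 were called lower, against 2.01%. Liver values did not overlap for 6 of the 9, against 32.2% of all genes. The median size of the log2 change, whatever its sign, was 0.82 in the duodenum and 1.09 in the liver, compared with 0.23 and 0.27 over all genes tested. Of the called genes, Cry1 and Nr1d1 were shared by both tissues, 2 of the 3 duodenum calls and 2 of the 4 liver calls. Over all genes, 61 calls were shared, 20.9% of the duodenum calls and 7.53% of the liver calls.

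**Figure D1:**
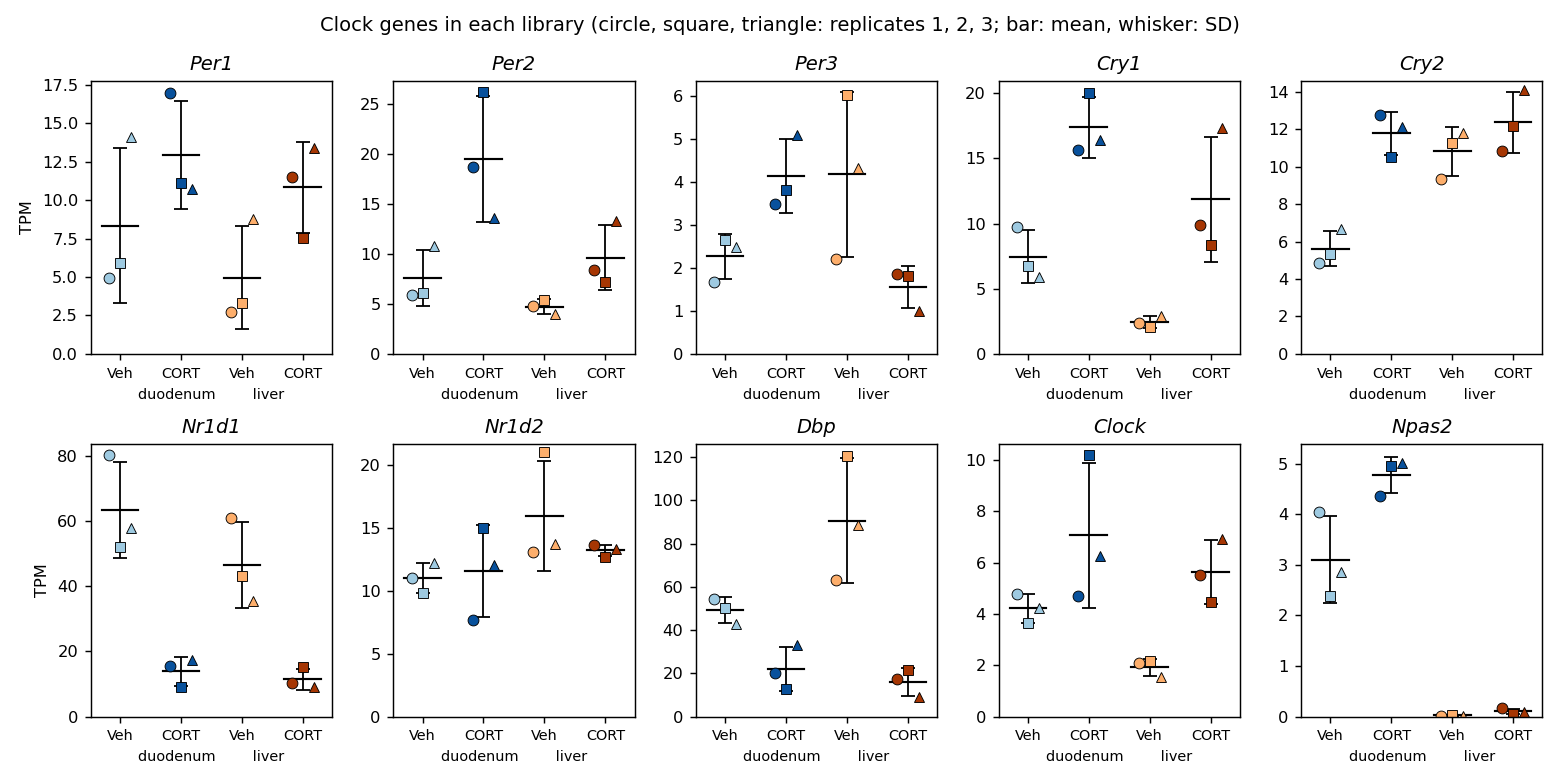
TPM (y axis, from 0) of the 10 clock genes in each of the 12 libraries, with Veh and CORT of the duodenum in blue and of the liver in orange. The bar is the group mean and the whisker the SD of 3 libraries. Nr1d1 lies between 35.5 and 80.1 TPM in the Veh libraries and between 8.97 and 17.4 TPM in the CORT libraries of both tissues.

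Some facts on the libraries bear on all values below. The 8 hepatocyte markers were all at 1 TPM or more in the liver and the 9 enterocyte markers in the duodenum. In the duodenum, Veh2 and Veh3 stood apart: the summed level of 15 pancreatic acinar markers was 35472 and 28918 TPM, against 181 TPM in Veh1 and 145 to 322 TPM in the CORT libraries. The enterocyte sum was 17193 to 25681 TPM in Veh and 28554 to 32971 TPM in CORT. Of its 9 markers, Apoa4 and Fabp2 were higher in every CORT library, while the Veh and CORT values of the other 7, such as Vil1, Sis and Cdx2, overlapped. The sum of 6 B and plasma cell markers was 828 to 1030 TPM in Veh and 229 to 542 TPM in CORT. In liver CORT libraries the list of 5 adipocyte markers summed to 9.68 to 114 TPM, against 3.87 to 5.14 TPM in Veh. This was Cidec, at 3.59 to 3.82 TPM in Veh and 9.41 to 113 TPM in CORT, while Adipoq and Lep were listed at 0 in every liver library. The enterocyte list, mostly Apoa4, summed to 644 to 3984 TPM in liver CORT against 186 to 296 TPM in Veh, with Alpi listed at 0 in every liver library. The part of these cell types in the clock gene values was not tested, and in bulk tissue fewer cells of a type and less RNA per cell cannot be told apart. Fkbp5, a classical glucocorticoid target, rose in both tissues, with log2 changes of 4.30 in the duodenum (limma adjusted p = 0.00450) and 4.23 in the liver (0.00178).

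The promoters of Per1, Cry1 and Per3 are shown because they hold exact copies of the E-box or the D-box, elements through which the loop acts. RefSeq windows from 250 bases before to 50 bases after a start site (GRCm38.p6) were available for 9 of the 10 genes, at 12 start sites, and none was matched for Per2. The E-box CACGTG, the D-box TTATGTAA or TTACGTAA, the REV-ERB element core AGGTCA, the cyclic AMP element TGACGTCA and the glucocorticoid receptor core AGAACA were searched on both strands. Positions below are those of the first base of a match relative to the start site. The Per1 window (chr11:69098699-69098998, + strand) holds an E-box at -166 and, at -137, TGACCT, which is AGGTCA read on the other strand. The Cry1 window (chr10:85185005-85185304, - strand) holds an E-box at -60, and the Per3 window (chr4:151044616-151044915, - strand) holds D-boxes at -205 and -158. Each sequence runs 5′ to 3′ in the direction of the gene, and capitals mark the matches.
Per1: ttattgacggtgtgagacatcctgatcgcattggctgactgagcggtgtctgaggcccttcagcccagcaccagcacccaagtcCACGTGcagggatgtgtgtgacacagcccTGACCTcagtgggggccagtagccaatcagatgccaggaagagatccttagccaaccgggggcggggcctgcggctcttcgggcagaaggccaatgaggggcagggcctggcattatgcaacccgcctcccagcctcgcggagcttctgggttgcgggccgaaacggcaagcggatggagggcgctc
Cry1: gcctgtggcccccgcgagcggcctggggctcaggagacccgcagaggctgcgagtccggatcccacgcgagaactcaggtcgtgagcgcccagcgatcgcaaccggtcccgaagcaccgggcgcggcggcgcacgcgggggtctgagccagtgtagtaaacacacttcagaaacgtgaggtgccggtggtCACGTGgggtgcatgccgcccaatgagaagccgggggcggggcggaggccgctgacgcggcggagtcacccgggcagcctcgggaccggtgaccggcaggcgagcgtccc
Per3: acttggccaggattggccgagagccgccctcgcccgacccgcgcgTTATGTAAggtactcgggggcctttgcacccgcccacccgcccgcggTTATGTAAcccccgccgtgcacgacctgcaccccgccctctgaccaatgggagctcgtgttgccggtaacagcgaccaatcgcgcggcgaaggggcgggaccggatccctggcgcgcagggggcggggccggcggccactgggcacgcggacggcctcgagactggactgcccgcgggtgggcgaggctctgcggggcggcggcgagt

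Of the other windows, Nr1d2 held AGGTCA at -77 and the third start site of Clock held it at -119. The windows of Cry2, Nr1d1, Dbp and Npas2, the second of Per1 and the other two of Clock held none of the motifs. In all, 5 of the 9 genes had at least 1 match. The share of all promoters with at least 1 of these motifs was not counted, so this number has no background to be read against. Over the 32851 promoters in the reference the E-box was found in 7.15%, a D-box in 1.06%, AGGTCA in 16.3%, TGACGTCA in 1.79% and AGAACA in 19%. The full glucocorticoid element, in which AGAACA and its reverse complement stand 3 bases apart and which therefore overlaps that core, was found in 3 promoters, and neither it, the core nor TGACGTCA was found in those of the clock genes. These matches describe letters in short windows and not binding, and enhancers further away were not searched.

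**Figure D2:**
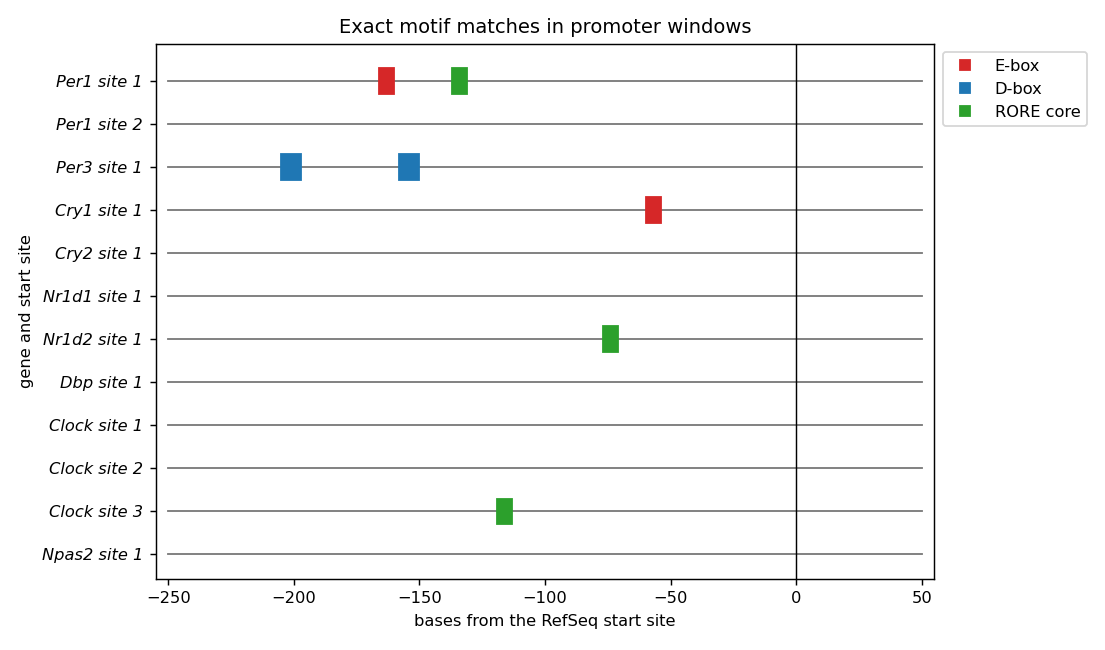
Exact motif matches (coloured blocks) in the promoter windows of 9 clock genes at 12 start sites, by distance in bases from the RefSeq start site (x axis, 0 is the start site). Per1, Per3, Cry1, Nr1d2 and Clock have at least 1 match, and 7 of the 12 windows have none. The share of all promoters with at least 1 match was not counted.

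Clock (ENSMUSG00000029238) encodes the DNA-binding activator of the loop. In the liver it stood at 2.07, 2.16 and 1.55 TPM in Veh1 to Veh3 and at 5.53, 4.45 and 6.91 TPM in CORT1 to CORT3, so every CORT library was above every Veh library. The mean went from 1.93 ± 0.329 to 5.63 ± 1.23 TPM (SD, n = 3 each), a log2 change of 1.17 ± 0.19 (SE), and it passed the test (limma adjusted p = 0.0170). This call was lost without Veh1 (adjusted p = 0.0528), Veh3 (0.0632) or CORT1 (0.0743), with a log2 change between 1.03 and 1.30 whichever library was left out. In the duodenum Clock was at 4.78, 3.63 and 4.23 TPM in Veh and 4.70, 10.2 and 6.27 TPM in CORT. These groups overlapped, since CORT1 was below Veh1, and the log2 change of 0.58 (95% interval -0.024 to 1.18) did not pass (adjusted p = 0.276). The difference between tissues, -0.59 ± 0.33 (duodenum minus liver), did not pass (treatment by tissue term, limma adjusted p = 0.371). Ube2n-ps1 overlaps Clock on the same strand, and its means in Veh and CORT liver were 20.85 and 29.45 TPM. Its log2 change was 0.48 in the liver (limma adjusted p = 0.065) and -0.12 in the duodenum (0.740). The part of this overlap in the Clock values was not tested.

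Npas2 (ENSMUSG00000026077), the paralog of Clock, was near 0 in the liver and present in the duodenum. Its liver values were 0.020, 0.040 and 0.010 TPM in Veh and 0.16, 0.050 and 0.10 TPM in CORT, below the level for testing. Duodenum values were 4.05, 2.39 and 2.86 TPM in Veh and 4.37, 4.95 and 5.02 TPM in CORT. The CORT libraries lay above the Veh libraries by a narrow margin, and the log2 change of 0.51 ± 0.18 did not pass (adjusted p = 0.192).

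Arntl (ENSMUSG00000055116), the partner of both activators, was not among the 10 genes but completes them. It rose in the liver from 0.76, 0.47 and 0.96 TPM in Veh to 5.54, 3.92 and 8.23 TPM in CORT, a log2 change of 1.96 ± 0.26 (limma adjusted p = 0.00910). It entered the liver test through its CORT group, since the Veh mean was 0.73 TPM. In the duodenum it was at 6.66, 2.96 and 3.90 TPM in Veh and 3.40, 6.36 and 3.23 TPM in CORT, which overlapped widely. The liver change exceeded the duodenum change by the treatment by tissue term (duodenum minus liver -2.00 ± 0.43, adjusted p = 0.0308). That call was kept without duodenum Veh1, Veh2 or CORT2 or without liver CORT2, and lost without any other library (adjusted p = 0.0531 to 0.0698).

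Per1 (ENSMUSG00000020893), a repressor gene of the loop and a glucocorticoid target, did not pass in either tissue. Liver levels were 2.75, 3.34 and 8.80 TPM in Veh and 11.5, 7.57 and 13.4 TPM in CORT. Veh3 was above CORT2, and the log2 change was 1.09 ± 0.38 (adjusted p = 0.131). Without Veh3 the change was 1.52 and passed the test (adjusted p = 0.0425). Duodenum levels were 4.94, 5.94 and 14.1 TPM in Veh and 17.0, 11.1 and 10.7 TPM in CORT. Here too Veh3 was the highest Veh library and lay within the CORT range, and the log2 change was 0.68 with a 95% interval from -0.19 to 1.54 (adjusted p = 0.365).

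Per2 (ENSMUSG00000055866), the second Period repressor, was higher in all 3 CORT libraries than in all 3 Veh libraries of each tissue, yet passed in neither. The duodenum held 5.91, 6.04 and 10.8 TPM in Veh and 18.7, 26.2 and 13.6 TPM in CORT, a log2 change of 1.26 ± 0.29 (adjusted p = 0.0840). The liver held 4.81, 5.41 and 3.97 TPM in Veh and 8.39, 7.23 and 13.3 TPM in CORT, a log2 change of 0.86 ± 0.23 (adjusted p = 0.0677).

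Per3 (ENSMUSG00000028957), the third Period gene, had estimates of opposite sign in the tissues. In the duodenum it was at 1.68, 2.65 and 2.50 TPM in Veh and 3.49, 3.82 and 5.11 TPM in CORT, with CORT above Veh throughout. In the liver it was at 2.20, 6.03 and 4.32 TPM in Veh and 1.86, 1.82 and 0.99 TPM in CORT, with CORT below Veh throughout. Neither log2 change passed within its tissue (0.65 ± 0.20 with adjusted p = 0.148 in the duodenum and -0.97 ± 0.31 with adjusted p = 0.110 in the liver). The difference between the tissues did pass (1.62 ± 0.39, 95% interval 0.77 to 2.47, limma adjusted p = 0.0463). It was the only one of the 10 genes called by the treatment by tissue term, against 3.61% of all 14806 genes tested. The call rests on a narrow margin, since it remained in 1 of 12 fits that each left out a library, the one without liver Veh1 (adjusted p = 0.0122), and the adjusted p was 0.0614 to 0.101 in the other 11. Camta1 overlaps Per3 on the same strand and did not pass in either tissue. Its log2 change was -0.014 in the duodenum (limma adjusted p = 0.9795) and -0.25 in the liver (0.451). The part of this overlap in the Per3 values was not tested.

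Cry1 (ENSMUSG00000020038), which encodes the strongest repressor of the loop, rose in both tissues. Liver values were 2.35, 2.06 and 2.94 TPM in Veh and 9.89, 8.38 and 17.3 TPM in CORT. The lowest CORT library was thus well above the highest Veh library, and the log2 change of 1.85 ± 0.26 passed (limma adjusted p = 0.0113), also without any 1 library. Duodenum values were 9.75, 6.71 and 5.88 TPM in Veh and 15.7, 20.0 and 16.4 TPM in CORT. The groups did not overlap there either, and the mean went from 7.45 ± 2.04 to 17.4 ± 2.33 TPM (SD, n = 3 each). The log2 change of 1.14 ± 0.20 passed (limma adjusted p = 0.0392), and of the fits without 1 library only that without Veh1 kept the call. The adjusted p was 0.122 without Veh2, 0.132 without Veh3, 0.0892 without CORT1, 0.109 without CORT2 and 0.0952 without CORT3. The liver change was larger by 0.70 on the log2 scale, a difference that did not pass (adjusted p = 0.314).

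Cry2 (ENSMUSG00000068742), the second Cryptochrome, rose in the duodenum and did not pass in the liver. It was at 4.87, 5.34 and 6.66 TPM in Veh and 12.8, 10.5 and 12.1 TPM in CORT, with a wide gap between the groups. The log2 change was 0.95 ± 0.15 (limma adjusted p = 0.0310), and the call was lost whichever library was left out, with an adjusted p of 0.0631 without CORT2, the lowest, to 0.108 without Veh2, the highest. In the liver it was at 9.37, 11.3 and 11.8 TPM in Veh and 10.9, 12.2 and 14.1 TPM in CORT, which overlapped. The liver log2 change was 0.18 (95% interval -0.18 to 0.53, adjusted p = 0.489), and the difference between tissues, 0.78 ± 0.21, did not pass (adjusted p = 0.0693).

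Nr1d1 (ENSMUSG00000020889), the REV-ERBα repressor, fell in both tissues. In the duodenum it was at 80.1, 51.9 and 57.9 TPM in Veh and 15.4, 8.97 and 17.4 TPM in CORT. In the liver it was at 61.0, 43.0 and 35.5 TPM in Veh and 10.2, 15.1 and 8.98 TPM in CORT. In each tissue the highest CORT library was under the lowest Veh library by a factor of more than 2. The mean went from 63.3 ± 14.8 to 13.9 ± 4.42 TPM in the duodenum and from 46.5 ± 13.1 to 11.4 ± 3.23 TPM in the liver (SD, n = 3 each). The log2 changes were -2.13 ± 0.27 (limma adjusted p = 0.0189) and -1.93 ± 0.25 (adjusted p = 0.00907), and the difference between them was -0.20 (95% interval -1.08 to 0.69, adjusted p = 0.842). The liver call held without any 1 library, and the duodenum call was lost without Veh3 (adjusted p = 0.0668) or CORT1 (0.0523). The 3′ end of Nr1d1 overlaps Thra, a thyroid hormone receptor gene on the opposite strand, and use of strand in the counting is not stated. Thra did not pass in either tissue, with log2 changes of -0.57 (adjusted p = 0.170) and -0.39 (adjusted p = 0.274).

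Nr1d2 (ENSMUSG00000021775), the REV-ERBβ paralog, did not pass in either tissue. It was at 11.1, 9.84 and 12.2 TPM in Veh and 7.69, 15.0 and 12.04 TPM in CORT of the duodenum, and at 13.1, 21.0 and 13.8 TPM in Veh and 13.6, 12.7 and 13.3 TPM in CORT of the liver. Both pairs of groups overlapped. The 95% intervals of the log2 change ran from -0.52 to 0.57 in the duodenum and from -0.67 to 0.22 in the liver, which excludes a change of the size of that of Nr1d1.

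Dbp (ENSMUSG00000059824), the output activator of the loop, fell in the liver. It was at 63.0, 121 and 88.5 TPM in Veh and 17.5, 21.8 and 8.94 TPM in CORT, so the groups were far apart. The mean went from 90.7 ± 28.9 to 16.1 ± 6.53 TPM (SD, n = 3 each), the log2 change was -2.46 ± 0.35 (limma adjusted p = 0.0120), and the call held without any 1 library. In the duodenum it was at 54.6, 50.1 and 42.8 TPM in Veh and 20.3, 12.6 and 33.2 TPM in CORT. All CORT libraries were below all Veh libraries there, but CORT3 was close to Veh3, and the log2 change of -1.22 ± 0.32 did not pass (adjusted p = 0.105). The difference between tissues, 1.24 ± 0.52, did not pass (adjusted p = 0.239). Sphk2, which overlaps Dbp on the opposite strand, rose in the liver (log2 change 0.70, limma adjusted p = 0.0357) and had a log2 change of 0.013 in the duodenum (adjusted p = 0.975).

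**Figure D3:**
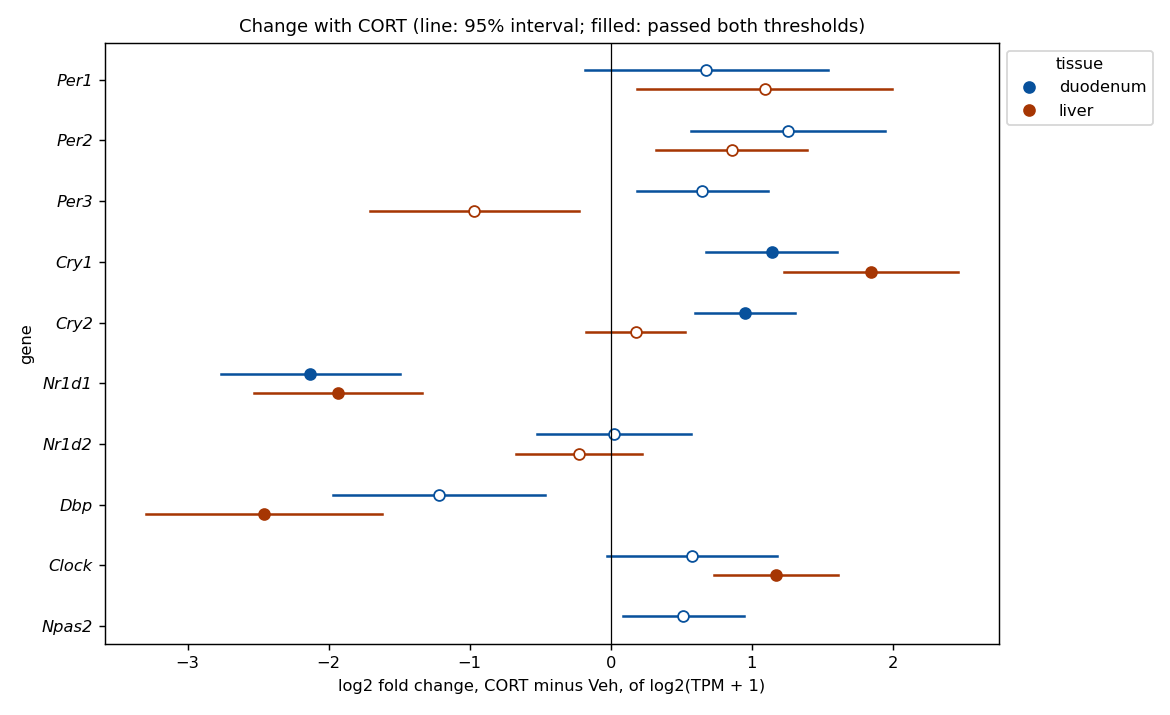
Log2 fold change of log2(TPM + 1), CORT minus Veh (x axis), for the 10 clock genes in the duodenum (blue) and the liver (orange). Points are limma estimates, lines 95% intervals, and filled points passed both thresholds. Npas2 was not tested in the liver. Nr1d1 lies near -2 in both tissues, and Per3 lies on opposite sides of 0.

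The order of the genes by level also differed between groups. In Veh liver, Dbp, Nr1d1, Nr1d2 and Cry2 followed each other from the highest down without overlap between neighbours, and Per1, Per2, Per3, Cry1 and Clock came next, each overlapping its neighbour, with Npas2 last. In Veh duodenum Nr1d1 and Dbp led and overlapped each other, both above all the rest. With CORT in the duodenum every gene overlapped its neighbour in the order of levels. These are descriptions of TPM, which are per transcript length, with no test.

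The genes most like Per1 and Dbp were sought among 10500 genes, by Pearson r of log2(TPM + 1) after each tissue was centred on its own mean. For Per1 they were Herpud1 (r = 0.935), Ddit4 (0.926) and Arhgef37 (0.921), and for Dbp they were Rnf181 (0.984), Capn1 (0.975) and 0610040J01Rik (0.965). The values describe likeness over 12 libraries, which share the contrast of treatment, and carry no test.

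Lists of 25 further clock genes were examined beside the 10. In the duodenum 4 of 19 tested rose and 0 fell, where 1.23% of all genes were called higher and 0.919% lower. In the liver 7 of 22 rose and 0 fell, where 4.91% of all genes were called higher and 2.01% lower. The 7 include Arntl, which entered the liver test through its CORT group alone, so its call is no support for that count. These lists were written with earlier results of the same libraries known. Hlf, a D-box activator related to Dbp, rose in both tissues, from 3.66 ± 0.427 to 10.6 ± 1.92 TPM in the duodenum and from 11.7 ± 1.77 to 23.3 ± 4.06 TPM in the liver (SD, n = 3 each). Its log2 changes were 1.30 (limma adjusted p = 0.0185) and 0.93 (adjusted p = 0.0265). Por, the electron donor of cytochrome P450 enzymes and a clock output gene, also rose in both, by 1.26 (adjusted p = 0.0189) and 1.75 (adjusted p = 0.00702) on the log2 scale.

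In the duodenum the other 2 were Bhlhe40 and Wee1. Bhlhe40, a repressor at E-boxes, rose by 1.15 (adjusted p = 0.0248) and Wee1, a cell cycle kinase under clock control, by 0.86 (adjusted p = 0.0215). Liver log2 changes were 0.18 for Bhlhe40 (limma adjusted p = 0.538) and 0.17 for Wee1 (0.685). The difference between tissues passed for Bhlhe40 (treatment by tissue term, limma adjusted p = 0.0483) and did not pass for Wee1 (0.199). Of the duodenum calls, Hlf was lost without Veh2, Veh3 or CORT1 (adjusted p = 0.0536 to 0.0785), Por without Veh2, Veh3, CORT1 or CORT3 (0.0523 to 0.0846), Bhlhe40 without any Veh library or CORT3 (0.0509 to 0.0884) and Wee1 without Veh2, Veh3, CORT2 or CORT3 (0.0574 to 0.1004). All 4 were also lost without the filter on low values (0.0533 to 0.0628).

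In the liver the other 5 were Arntl, given above, Nfil3, Ciart, Cipc and Usp2. Nfil3, a repressor at D-boxes, rose by 1.64 (adjusted p = 0.0303). Ciart and Cipc, inhibitors of CLOCK and BMAL1, rose by 1.53 (adjusted p = 0.0496) and 1.06 (adjusted p = 0.00609), and Usp2, a deubiquitinating enzyme, by 1.56 (adjusted p = 0.0429). Duodenum log2 changes of Nfil3, Ciart, Cipc and Usp2 were 0.51, 0.26, 0.53 and 0.23, and none passed (limma adjusted p = 0.247, 0.702, 0.133 and 0.478). The difference between tissues did not pass for any of them (treatment by tissue term, limma adjusted p = 0.172, 0.232, 0.155 and 0.114). Of these liver calls Cipc and Por held without any 1 library, whereas Hlf passed only without Veh2, Nfil3 only without CORT2, and Ciart and Usp2 only without Veh3. In the other fits the adjusted p was 0.0511 to 0.0913 for Hlf, 0.0599 to 0.0979 for Nfil3, 0.0881 to 0.149 for Ciart and 0.0682 to 0.128 for Usp2. Median-ratio scaling also ended the calls of Hlf (0.0640), Ciart (0.0723) and Usp2 (0.0583), and all 4 were lost without the filter (0.0676 to 0.129).

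Among the 6 genes for turnover of PER and CRY proteins, the casein kinases and F-box genes, 0 of 5 tested in the duodenum and 0 of 6 in the liver were called by limma, against 2.15% and 6.92% of all genes called in either direction. An unadjusted p under 0.05 was found for 2 of the 5 and 3 of the 6, against 19.2% and 25.9% of all genes. The 3 liver genes include Fbxl21, with means of 1.93 TPM in Veh and 0.813 TPM in CORT. It entered the liver test through its Veh group alone, so it is no support for that count. The median log2 change of the 25 genes, among those tested, was 0.46 in the duodenum and 0.55 in the liver, beside -0.012 and 0.078 over all genes. The liver value includes genes that reached the filter in a single group, such as Arntl.

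**Figure D4:**
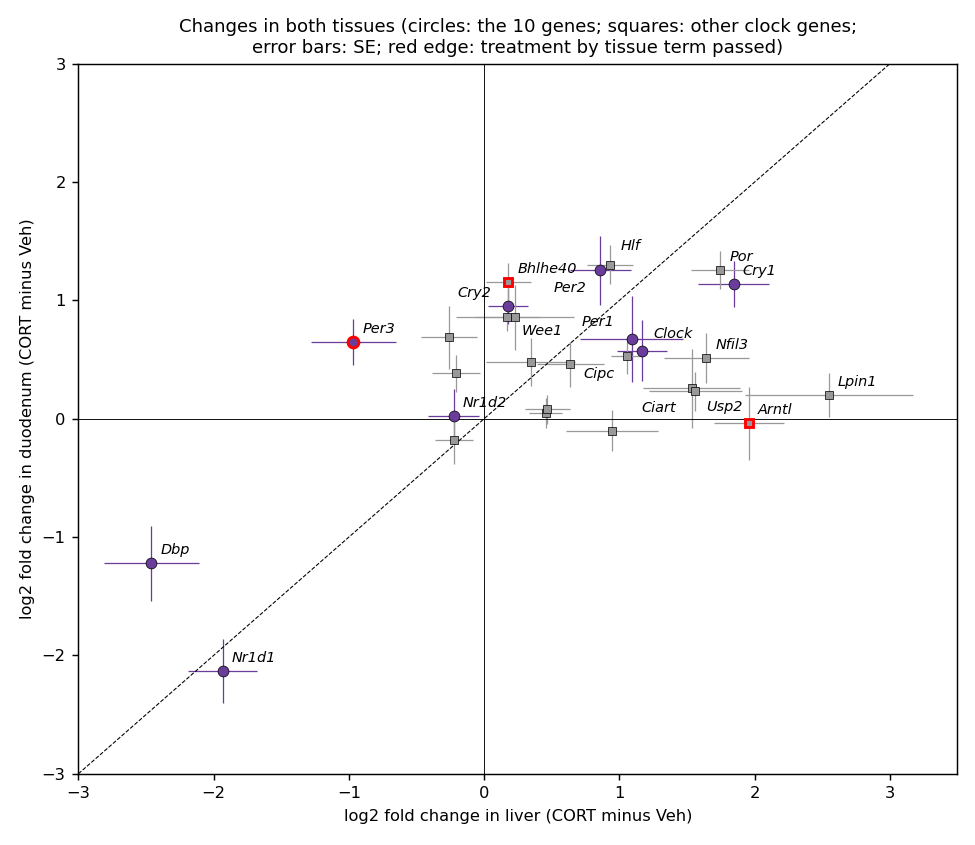
Log2 fold change with CORT in the liver (x axis) against the duodenum (y axis) for 9 of the 10 clock genes (circles) and the other clock genes tested in both tissues (squares), with SE bars. The dashed line marks equal change, and red edges mark Per3, Arntl and Bhlhe40, which passed the treatment by tissue term.

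Without duodenum libraries Veh2 and Veh3, which carried the acinar markers, 0 of the 10 clock genes passed in the duodenum, where Veh then held 1 library assumed to vary like the CORT group. The log2 changes were then 0.77 for Cry1, 1.12 for Cry2 and -2.49 for Nr1d1 (limma adjusted p = 0.414, 0.251 and 0.203), and Hlf, Por, Bhlhe40 and Wee1 did not pass either (0.294 to 0.311). With the acinar markers removed and TPM rescaled, the 3 calls stood. That setting drops only the marker genes, so clock gene RNA from acinar cells would remain in Veh2 and Veh3. The part of acinar cells in these calls was not tested.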

How the data were processed

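RNA was sequenced from 12 libraries of duodenum and liver. Per the labels and the study's methods, the authors used SeqPrep and Sickle for trimming, HISAT2 in orientation mode for alignment to GRCm39, StringTie for assembly and RSEM for quantification, and deposited TPM per gene and library. Tool versions and the annotation release are not given in the sources used here. TPM hide the depth, so neither counting errors nor detection limits can be given, and precision comes from 3 libraries per group, which the labels call biological replicates. The authors called changed genes with DESeq2 from read counts, which were not used here.

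Values were analysed as log2(TPM + 1), a scale that understates changes of low genes. Genes whose mean reached 1 TPM in one of the groups were fitted per tissue with limma 3.58.1 (R 4.3.3; lmFit, eBayes with trend), two-sided, with Benjamini-Hochberg adjustment over all genes tested. A call needed a fold change above 1.5 and an adjusted p no higher than 0.05. A fit of all 12 libraries gave the treatment by tissue term, called at an adjusted p of 0.05 or less. An exact permutation test of 3 against 3 libraries could not go below 0.1. The fits were tested on simulated data. The 10 genes, the other lists and the markers were chosen with earlier results of these data known. One gene of the other lists is not reported here. The text names all 10 genes, Arntl, those of the other clock lists that passed in a tissue, Fkbp5 and Tsc22d3 as treatment controls, and the 3 genes most like Per1 and Dbp. Outside this rule it names marker genes, genes that overlap one of the 10, and Fbxl21, Lpin1 and Cyp7a1, chosen after their values were seen. Overlapping genes were found in GENCODE M21, used only for neighbours, and promoters came from RefSeq (GRCm38.p6). Alternatives were a pseudocount of 0.1, no filter, the replicate number as a block, median-ratio scaling, no limit on fold change, removal of acinar markers and leaving out each library. A fit without duodenum Veh2 and Veh3 was added after seeing the data.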

Additional observations from a re-analysis of the deposited data

Results flagged for a closer look

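For 3 clock genes the change with CORT differed between duodenum and liver by the treatment by tissue term of limma, tested over 14806 genes. They were 1 of the 10 genes and 2 of the 22 tested in the other clock lists, against 3.61% of all genes. The difference of log2 changes, duodenum minus liver, was 1.62 for Per3 (adjusted p = 0.0463), -2.00 for Arntl (adjusted p = 0.0308) and 0.97 for Bhlhe40 (adjusted p = 0.0483). Per3 had estimates of opposite sign in the 2 tissues, Arntl was called in the liver, and Bhlhe40 was called in the duodenum. When each of the 12 libraries was left out in turn, Per3 stayed past the threshold only without liver Veh1, Arntl only without duodenum Veh1, Veh2 or CORT2 or liver CORT2, and Bhlhe40 only without duodenum CORT1 or liver CORT3. In the other fits the adjusted p was 0.0614 to 0.101 for Per3, 0.0531 to 0.0698 for Arntl and 0.0744 to 0.108 for Bhlhe40.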

How the results depend on the processing

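The duodenum calls depended on the settings more than the liver calls. In the duodenum 292 genes and 3 clock genes were called. Without a filter on low values these were 52 and 0, with the replicate block 62 and 1 (Nr1d1), without Veh2 and Veh3 10 and 0, and without each library 66 to 237 and 0 to 2. In the liver 810 genes and 4 clock genes were called. No filter gave 283 genes, the replicate block 307 and leaving out each library 247 to 831, with 3 or 4 clock genes under every setting run, Clock being the one lost without a filter and with the block. Median-ratio scaling gave 543 higher and 468 lower liver genes, against 575 and 235. The treatment by tissue term called 534 genes, and 289 to 626 without each library. Its 1 clock gene became 0 with a pseudocount of 0.1, with no filter and with the block, 2 with median-ratio scaling (Per3 and Cry2) and 0 to 1 without each library. The causes were not tested.

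Estimates near 0 changed sign. The duodenum log2 change of Nr1d2 was -0.0047 with acinar markers removed and -0.17 to 0.27 without each library, that of Arntl was -0.30 to 0.23 without each library, and the difference between tissues was -0.41 to 0.071 for Nr1d1 without each library and -0.053 for Npas2 with a pseudocount of 0.1. Other changes of the 10 clock genes kept their sign. The replicate numbers were not shown to pair the samples: deviations of same-numbered Veh and CORT libraries correlated at 0.054, 0.073 and -0.0039 in the duodenum and 0.038, -0.0084 and -0.12 in the liver, and not every library correlated best with its own number. Beyond the 10 clock genes, the block also ended the duodenum calls of Hlf, Por, Bhlhe40, Wee1 and Tsc22d3 (adjusted p = 0.0627, 0.0567, 0.0774, 0.0845 and 0.0774) and the liver calls of Hlf, Nfil3 and Ciart (0.0548, 0.0790 and 0.0752), and Tsc22d3 passed with it in the liver (0.0333). TPM give no depth, so values near 0, such as Npas2 in the liver, carry an unknown counting error.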

Other observations

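Lpin1 and Cyp7a1, output genes chosen here after their values were seen, lay near the threshold in the liver. Lpin1, a phosphatidate phosphatase and coactivator, was at 10.3, 12.6 and 58.3 TPM in Veh and 180, 88.1 and 112 TPM in CORT, with a log2 change of 2.55 ± 0.62 (limma adjusted p = 0.0565). Cyp7a1, the rate-limiting enzyme of bile acid synthesis, had a log2 change of -1.27 ± 0.31 (adjusted p = 0.0555).

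Liver Veh3 had the highest level among the Veh libraries of several genes that were higher with CORT, chosen after their values were seen. Per1 was at 8.80 TPM there and at 2.75 and 3.34 TPM in Veh1 and Veh2. Fkbp5 was at 19.5 TPM against 7.14 and 12.7 TPM, Tsc22d3, another glucocorticoid target, at 68.0 against 31.3 and 18.4 TPM, Ciart at 14.3 against 5.39 and 5.22 TPM, and Usp2 at 20.6 against 7.86 and 9.57 TPM. Nfil3 and Per2 did not share this order, with 5.62 and 3.97 TPM in Veh3, the lowest of the Veh libraries. Tsc22d3 had a liver log2 change of 1.92 (limma adjusted p = 0.0623), which passed without Veh3 (2.41, adjusted p = 0.0387). In the duodenum it rose by 2.01 (adjusted p = 0.0185), a call that was lost without Veh2 (0.0582), CORT1 (0.0582) or CORT2 (0.0604), without Veh2 and Veh3 together (0.199) and without the filter on low values (0.0554).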
